A study of Mus musculus with 16 samples.

Results

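The interferon and inflammatory signaling genes are 45 mouse genes listed by their known roles. The roles are interferon-induced effectors, transcription factors of the interferon and NF-kB pathways, sensors with adaptors and inflammasome genes, and cytokines with chemokines. All 45 were found by symbol among the 55404 genes that were quantified, and their levels were compared to separate an inflammatory response from a purely phagocytic activation of glia. Total RNA of the whole brain had been sequenced, after depletion of ribosomal RNA, from 8 Tecpr2 ki/ki and 8 wt/wt mice of 5 months, with no treatment and 1 library per mouse. The ki/ki mice carried the Tecpr2 L1152fs knock-in on both alleles, a frameshift made by CRISPR/Cas9 editing of C57BL/6 J zygotes, and the wt/wt mice carried the unedited gene. According to the study, all of these mice were males. The edit is present in every cell, so no cell type is singled out by the model. Tecpr2 itself lay between 274 and 320 in ki/ki mice (median 298.5) and between 928 and 1002 in wt/wt mice (median 968.5), so every library went with its label.

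In brain tissue, type I interferons bind the receptor pair Ifnar1 and Ifnar2 and, through the kinases Jak1 and Tyk2, activate a complex that holds Stat2 and Irf9 and switches on antiviral genes such as Ifit1, Ifit3 and Isg15. Toll-like receptors and cytosolic RNA sensors feed into the same programme through Irf7 and, in parallel, into NF-kB, whose subunits Rela and Nfkb1 drive cytokines such as Il1b, Tnf and Ccl2. Microglia carry most of the Toll-like receptors of the brain, and an interferon-responsive state of microglia has been described beside the phagocytic state marked by Cd68, Trem2 and Itgax.

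The letters that this complex reads are visible in the promoters of these genes, and 4 promoters and 1 site are shown because they belong to genes that interferon is known to induce. The letters searched were GAAA followed, after any 2 bases, by GAAA again, on either strand (TTTC on the reverse), which is the core of the interferon-stimulated response element (ISRE), in RefSeq promoter windows of GRCm38.p6 that run from 250 bases before to 50 bases after each start. For Ifit1 (chr19:34640639-34640888, plus strand), Ifit3 (chr19:34583279-34583528, plus strand), Isg15 (chr4:156200819-156201068, minus strand) and Cxcl10 (chr5:92348890-92349139, minus strand), the 250 bases before the start are printed 5′ to 3′, and for Ifih1 the 30 bases at chr2:62646206-62646235 (minus strand), with the matched letters in capitals.
Ifit1: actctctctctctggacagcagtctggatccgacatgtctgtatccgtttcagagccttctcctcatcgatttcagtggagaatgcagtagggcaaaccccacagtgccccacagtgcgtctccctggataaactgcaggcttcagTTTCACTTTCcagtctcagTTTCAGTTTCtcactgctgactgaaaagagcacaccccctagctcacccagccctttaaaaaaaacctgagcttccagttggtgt
Ifit3: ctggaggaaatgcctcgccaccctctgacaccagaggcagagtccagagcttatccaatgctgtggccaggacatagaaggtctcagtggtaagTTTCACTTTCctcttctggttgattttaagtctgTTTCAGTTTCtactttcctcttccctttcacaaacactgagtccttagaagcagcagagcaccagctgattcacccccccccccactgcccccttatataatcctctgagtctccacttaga
Isg15: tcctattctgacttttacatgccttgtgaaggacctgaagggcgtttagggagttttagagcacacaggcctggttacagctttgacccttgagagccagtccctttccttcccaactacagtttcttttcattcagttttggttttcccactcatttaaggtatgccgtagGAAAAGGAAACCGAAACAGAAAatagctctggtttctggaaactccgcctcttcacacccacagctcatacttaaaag
Cxcl10: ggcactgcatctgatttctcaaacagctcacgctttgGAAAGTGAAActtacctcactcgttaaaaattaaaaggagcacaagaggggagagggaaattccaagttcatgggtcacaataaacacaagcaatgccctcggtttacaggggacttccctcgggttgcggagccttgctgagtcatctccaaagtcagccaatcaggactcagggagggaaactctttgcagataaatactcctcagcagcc
Ifih1: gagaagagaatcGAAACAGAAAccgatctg
Ifit1 held 2 matches, which began 104 and 85 bases before the start, and Ifit3 held 2, at 156 and 122 bases. In Isg15, 3 overlapping matches began 78, 72 and 66 bases before the start. The single match of Cxcl10 began 213 bases before the start, and that of Ifih1 began 32 bases after it. Of the 45 genes, 36 had a window, and 16 of these 36 held the letters, against 1079 of all 27025 genes with a window (3.99%). They were most common among the interferon-induced effectors, at 11 of 14 genes. Among the sensors, adaptors and inflammasome genes it was 3 of 6, and among the transcription factors and the cytokines 1 of 8 each, namely Stat2 and Cxcl10. The letters of an NF-kB site (GGGA, any 4 bases and CC, either strand) stood in 15 of the 36 genes and in 22.9% of all genes. A match is a string of letters and was not taken as a bound site.

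The deposited values are normalized levels rounded to whole numbers, and genes were compared with limma on log2(value + 1) if they added up to more than 16 over the mice and at least 4 mice of ki/ki or wt/wt had a value above 5. A log2 fold change is ki/ki minus wt/wt on this scale, which understates differences of genes with low values, and a gene was called at an adjusted p under 0.1 (Benjamini-Hochberg over all 23244 tested genes). Of the 45 genes, 37 were tested. The other 8, all cytokines, lay under the filter. None of the 37 was called, where 31 of all 23244 tested genes were (0.133%), with 0.0946% of the tested genes called higher and 0.0387% lower in ki/ki mice. At an unadjusted p under 0.05 there were 3 of the 37, Tlr7, Nfkb1 and Ifih1, beside 6.08% of all tested genes (3.07% higher and 3.01% lower). In none of the 37 were the values of the genotypes without overlap, which 0.086% of all tested genes were. The median log2 fold change was 0.04 over the 37 genes and -0.00098 over all tested genes. In 21 genes it was above 0 and in 16 below, and the lowest was -0.20 (Ifih1) and the highest 0.42 (Tlr7). In RNA of whole brain, fewer cells of a type and less RNA per cell cannot be told apart.

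How large a difference in the mean of the whole brain could have been missed is given by the 95% intervals. They do not bound a change confined to a small region, which was not tested. The study placed the loss of neuronal cell bodies in the dorsal column nuclei of the medulla. In hindbrain of older mice, it listed Ccl2 among the raised genes. In 31 of the 37 genes the whole interval lay between -0.5 and 0.5, and the same was true of 74.4% of all tested genes and of 74.8% of the 17276 tested genes whose mean value lay in the range of the 37. The 6 genes whose interval passed -0.5 or 0.5 were Isg15, Oas1a, Bst2, Tlr2, Tlr7 and Nlrp3. Except for Tlr7, with a mean of 30.2 over all mice and a log2 fold change of 0.42, each of these had a mean value under 15. Within a genotype, the SD of a member was 0.76 to 1.58 times (median 1.07) the SD that counting reads alone would give at these depths, so that most members varied little beyond counting error. Between 9.23 and 15.4 megareads per mouse had been counted on genes, as estimated from the rounding of the values (median 11.97 in ki/ki and 13.1 in wt/wt mice).

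**Figure D1:**
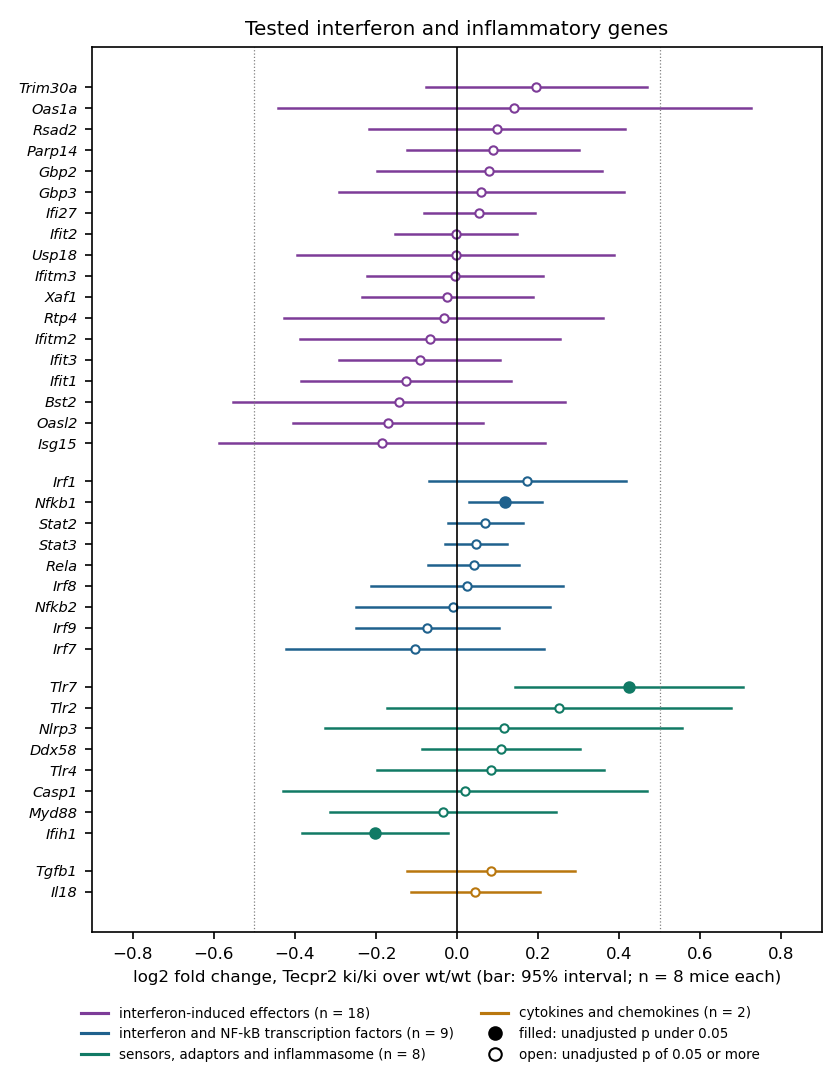
Log2 fold change of each of the 37 tested genes (x axis, ki/ki over wt/wt, 8 mice each) with its 95% interval, sorted within 4 roles given by colour. Filled points have an unadjusted p under 0.05 (Tlr7, Nfkb1 and Ifih1), dotted lines stand at -0.5 and 0.5, and the interval of every gene other than these 3 covers 0.

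The 18 interferon-induced effectors were all tested, and none was called or reached an unadjusted p under 0.05. Their median log2 fold change was -0.004, with 7 genes above 0 and 11 below. Ifit3, a partner of the viral RNA binding protein Ifit1, lay between 53 and 90 in ki/ki mice (median 71) and between 61 and 88 in wt/wt mice (median 76). The 2 ranges covered each other almost fully, and the log2 fold change was -0.09 (SE 0.10, 95% interval -0.29 to 0.11). Isg15, a ubiquitin-like protein that is attached to other proteins after interferon, lay between 8 and 17 in ki/ki mice (median 13) and between 10 and 18 in wt/wt mice (median 13). Its log2 fold change was -0.19 (95% interval -0.59 to 0.22), the lowest of the 18 genes, and the medians were equal. Ifit3 and Isg15 both had an adjusted p of 0.934 in limma's test.

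Other effectors likewise overlapped between the genotypes. Ifit1 had means of 36.1 in ki/ki and 39.6 in wt/wt mice (SD 6.08 and 7.15, n = 8 each), and Rsad2, or viperin, which blocks the budding of viruses, had means of 27 and 25.5. For Ifitm3, a membrane protein that stops viruses from entering the cytosol, both means were 58. Oasl2, a relative of the enzymes that make the RNase L activator, lay between 35 and 49 in ki/ki mice (median 47) and between 37 and 63 in wt/wt mice (median 50), and no ki/ki mouse lay above the wt/wt median. Its log2 fold change of -0.17 (95% interval -0.40 to 0.06) had an adjusted p of 0.902 in limma's test (0.152 before adjustment). Usp18, which removes Isg15 from proteins and dampens the interferon receptor, had means of 14.2 and 14.9.

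Trim30a, a restraint on Toll-like receptor signalling, had the highest log2 fold change of the 18 effectors at 0.20 (95% interval -0.08 to 0.47), and 1 ki/ki mouse lay above all wt/wt mice. Gbp2, a GTPase that attacks the vacuoles of intracellular microbes, lay between 23 and 47 in ki/ki mice (median 34) and between 28 and 34 in wt/wt mice (median 30.5). Thus 4 ki/ki mice were above every wt/wt mouse and others were below, and the log2 fold change was 0.08 (95% interval -0.20 to 0.36). Among the other effectors, Ifi27 (means of 148 and 142), Ifit2 (124 and 124), Parp14 (72.6 and 69.5), Xaf1 (57.8 and 58.9), Gbp3 (33.2 and 31.4), Ifitm2 (27 and 27.9), Rtp4 (17.8 and 17.9), Bst2 (13.5 and 14.4) and Oas1a (7.38 and 6.5) had intervals that covered 0.

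Some of these effectors have close copies, and how reads were divided between copies is uncertain. Of the 31-base words of their transcripts, Oas1a shared 68.8% with other genes, most of all Oas1g, Ifit3 shared 61.8% (Ifit3b) and Ifitm2 55.5% (Gm45717, which also overlaps it on the same strand). Smaller shares were found for Ifitm3 (20.5%), Isg15 (12.8%), Rtp4 (12.5%), Trim30a (11.7%) and Ifit1 (10.5%). Tlr7 shared none, Ifih1 0.13% and Nfkb1 0.51%.

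No mouse of either genotype stood out across the effectors. When the 16 mice were ranked for each of the 18 genes, the mean rank lay between 6.5 and 10.2 in ki/ki mice and between 5.61 and 10.7 in wt/wt mice. The highest and the lowest mean rank both belonged to wt/wt mice, numbers 3 and 4.

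**Figure D2:**
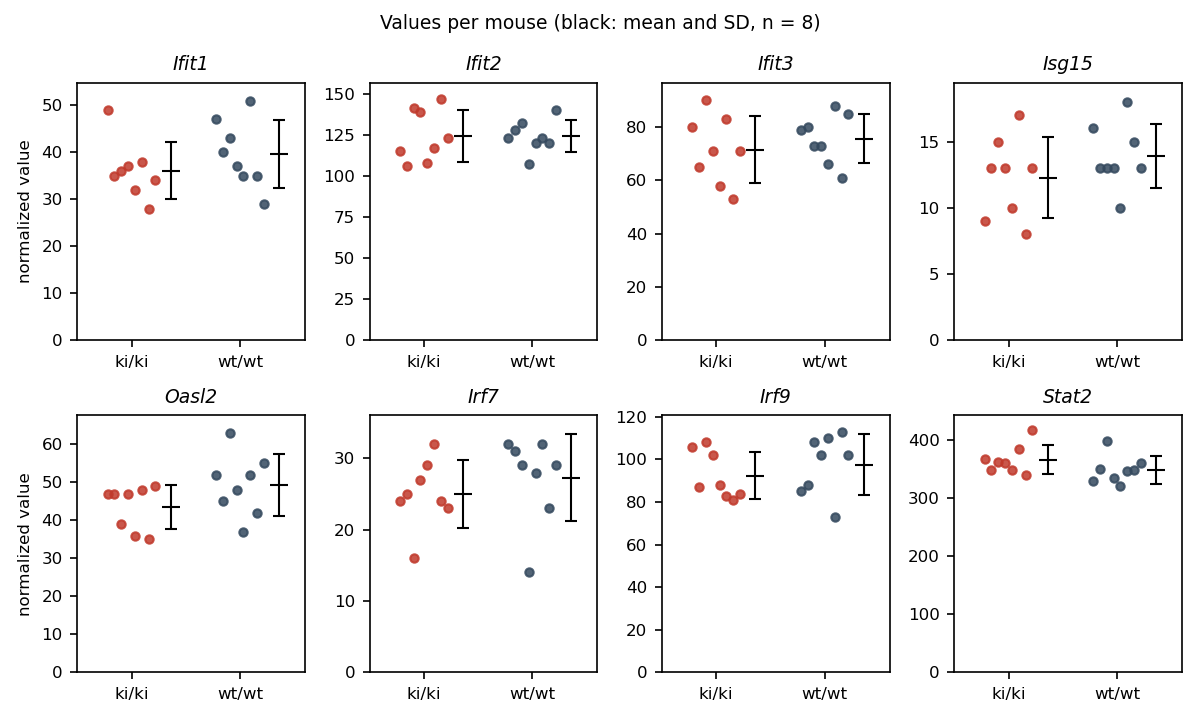
Normalized value per mouse (y axis, from 0) of 5 interferon-induced effectors and of the transcription factors Irf7, Irf9 and Stat2, with points in the order of mouse 1 to 8 and the mean with SD in black (n = 8 each). The ki/ki and wt/wt mice overlap in all 8 genes, for example at 53 to 90 against 61 to 88 for Ifit3.

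Among the 9 transcription factors, Nfkb1 was the only one with an unadjusted p under 0.05. Nfkb1, on the minus strand of chromosome 3 from 135584655 to 135691547, encodes the p105 precursor of the NF-kB subunit p50, and p50 by itself lacks an activation domain. It lay between 336 and 398 in ki/ki mice (median 364.5) and between 315 and 369 in wt/wt mice (median 334.5). All 8 ki/ki mice were above the wt/wt median and 4 were above every wt/wt mouse, but the ranges overlapped. The log2 fold change was 0.12 (SE 0.045, 95% interval 0.03 to 0.21), and limma gave an adjusted p of 0.641 (0.0101 before adjustment). An exact two-sided permutation test over all 12870 splits of the mice gave p = 0.0118, where the smallest p possible was 0.000155. This test was run only for members already at an unadjusted limma p under 0.05 in the same mice. Its p is unadjusted and adds no independent support.

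The partners of Nfkb1 lay closer to 0. Rela, the p65 subunit that activates transcription, lay between 198 and 229 in ki/ki mice (median 204.5) and between 186 and 232 in wt/wt mice (median 201), with a log2 fold change of 0.04 (95% interval -0.07 to 0.15). Nfkb2, the precursor of p52 in the non-canonical pathway, had means of 42.2 and 42.6. The difference between Nfkb1 and its partners was not tested.

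Factors of the interferon pathway showed no called difference. Irf7, which interferon induces strongly and which amplifies it in turn, lay between 16 and 32 in ki/ki mice (median 24.5) and between 14 and 32 in wt/wt mice (median 29), with a log2 fold change of -0.10 (95% interval -0.42 to 0.21). Stat2, of the complex that reads ISRE letters, lay between 339 and 416 in ki/ki mice (median 361) and between 321 and 397 in wt/wt mice (median 347), with a log2 fold change of 0.07 (95% interval -0.02 to 0.16). Without wt/wt mouse 3, which was the highest of its genotype at 397, Stat2 had an unadjusted p under 0.05 as well. Its partner Irf9 had means of 92.4 and 97.6, and Stat3, the mediator of Il6 family cytokines, 582 and 564. Irf1, an early target of interferon gamma, had means of 49.2 and 44.1 and a log2 fold change of 0.17 (95% interval -0.07 to 0.42), and Irf8, a lineage factor of microglia, had means of 52.8 and 51.6.

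Of the 8 sensors, adaptors and inflammasome genes, Tlr7 and Ifih1 had an unadjusted p under 0.05, in opposite directions. Tlr7, the endosomal receptor of single-stranded RNA, is on the minus strand of chromosome X from 167304929 to 167330558. It lay between 28 and 40 in ki/ki mice (median 35) and between 18 and 35 in wt/wt mice (median 25). All 8 ki/ki mice were above the wt/wt median and 3 were above every wt/wt mouse, whereas wt/wt mouse 7 reached 35. The log2 fold change was 0.42 (SE 0.14, 95% interval 0.14 to 0.70), and limma gave an adjusted p of 0.497 (0.0037 before adjustment), and the exact two-sided permutation test gave p = 0.00466.

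Ifih1, also known as MDA5, senses long double-stranded RNA in the cytosol and is itself induced by interferon. It is on the minus strand of chromosome 2 from 62595798 to 62646255. Its values lay between 62 and 89 in ki/ki mice (median 74.5) and between 76 and 99 in wt/wt mice (median 87.5). The log2 fold change was -0.20 (SE 0.09, 95% interval -0.38 to -0.02), and limma gave an adjusted p of 0.773 (0.0273 before adjustment), and the exact two-sided permutation test gave p = 0.0309. Only 2 ki/ki mice were above the wt/wt median. Without ki/ki mouse 1, ki/ki mouse 8 or wt/wt mouse 2, Ifih1 was no longer at an unadjusted p under 0.05, and its highest p was 0.0764.

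Its relative Ddx58, or RIG-I, the sensor of short RNA with 5′ triphosphates, had means of 79.4 in ki/ki and 73.6 in wt/wt mice and a log2 fold change of 0.11 (95% interval -0.09 to 0.30). Both sensors signal through the same adaptor, Mavs, and the difference between them was not tested. Tlr4, the receptor of bacterial lipopolysaccharide, lay between 26 and 35 in ki/ki mice (median 28) and between 22 and 38 in wt/wt mice (median 28), and its medians were equal. Tlr2, which recognises lipoproteins, lay between 8 and 19 in ki/ki mice (median 13.5) and between 8 and 13 in wt/wt mice (median 10.5), with a log2 fold change of 0.25 (95% interval -0.17 to 0.68). The adaptor of these receptors, Myd88, had means of 35.6 and 36. Nlrp3 and Casp1, the sensor and the protease of the inflammasome that matures Il1b and Il18, had means of 11.9 and 10.9 and of 12.8 and 12.4.

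Of the 10 cytokine genes, Il18 and Tgfb1 were tested. Il18, which is kept as an inactive precursor until the inflammasome cleaves it, had means of 105 in ki/ki and 102 in wt/wt mice (log2 fold change 0.05, 95% interval -0.11 to 0.20). Tgfb1, which restrains microglial activation, lay between 51 and 76 in ki/ki mice (median 55) and between 48 and 60 in wt/wt mice (median 54.5). Its log2 fold change was 0.08 (95% interval -0.12 to 0.29), and 2 ki/ki mice were above all wt/wt mice.

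The other 8 cytokine genes had mean values under 3 in both genotypes, and no mouse exceeded 5. Il1b, the main product of the inflammasome, lay between 0 and 4 in ki/ki mice (median 3) and between 0 and 3 in wt/wt mice (median 2). Il6 was at 0 or 1 in every mouse. Cxcl10, a chemokine that interferon induces strongly, lay between 0 and 5 in both genotypes (medians 1.5 and 1). These values overlapped between the genotypes. Ccl2, which attracts monocytes, lay between 0 and 3 in ki/ki mice (median 1) and between 0 and 1 in wt/wt mice (median 1). Ccl3, a chemokine of activated microglia, added up to 14 over the ki/ki mice and to 11 over the wt/wt mice, and Ccl12, a mouse chemokine close to Ccl2, to 11 and 10.

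Each of the 8 low cytokine genes summed higher over the ki/ki than over the wt/wt mice, from 6 against 5 for Il6 to 21 against 14 for Il1b, 16 against 10 for Cxcl10 and 10 against 5 for Ccl2. Without the filter on low values, limma's unadjusted p lay between 0.186 (Ccl2) and 0.730 (Ccl12) for 6 of the 8 genes and under 0.05 for Tnf and Ccl4. Tnf, made by microglia soon after Toll-like receptor signals, lay between 0 and 3 in ki/ki mice (median 1) and between 0 and 1 in wt/wt mice (median 0). Ccl4, a chemokine related to Ccl3, was listed at 5, 2, 1, 0, 1, 2, 0 and 0 in ki/ki mice 1 to 8 and at 0 in all wt/wt mice, so that 5 ki/ki mice had a value above 0. Of all 55404 genes, 11 (0.0199%) were above 0 in at least 5 ki/ki mice and in no wt/wt mouse. This rule has the pattern of Ccl4 itself, and the share covers genes of every level, so it does not measure how unusual Ccl4 is. Without the filter on low values, limma gave Ccl4 an adjusted p of 0.480 (0.00125 before adjustment) and Tnf an adjusted p of 0.881 (0.0459 before adjustment). At 0 to 5 per mouse, such values rest on a few reads, and neither gene was called.

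**Figure D3:**
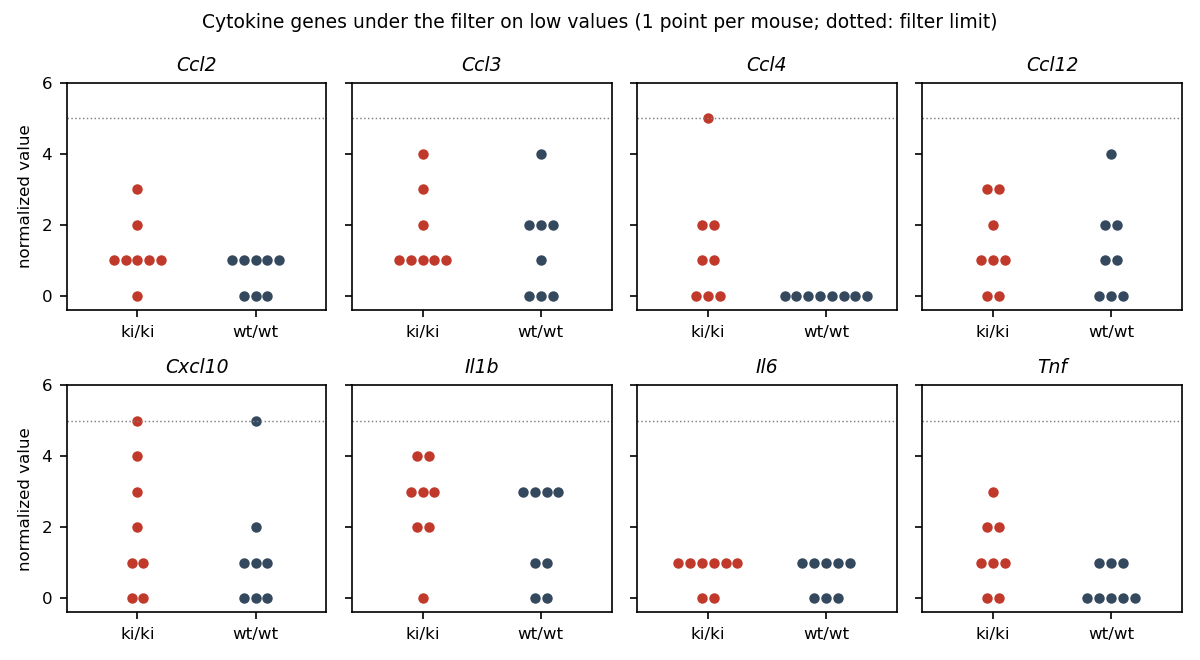
Normalized value (y axis) of the 8 cytokine genes under the filter on low values, with 1 point per mouse and the filter limit of 5 as a dotted line. No point lies above 5, Il6 is at 0 or 1 throughout, and Ccl4 is at 0 in all 8 wt/wt mice and above 0 in 5 ki/ki mice.

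Per kilobase of exon, the mean value over all mice was highest for Il18 (100), Ifi27 (98.9) and Ifitm3 (85.6). Rela (66.8), Stat2 (60.2), Stat3 (60.1) and Ifit3 (42.1) followed. The sensors Ddx58 (10.9), Ifih1 (10) and Tlr7 (7.41) lay lower, and so did effectors such as Rsad2 (6.06), Usp18 (5.22) and Oas1a (3.68). At the bottom were Cxcl10 (0.72), Tnf (0.5) and Il6 (0.28). Thus the brain of both genotypes held RNA of interferon-pathway factors and effectors, at levels that differed widely between genes. Of the 10 cytokines, 8 were close to the limit of detection, among them Cxcl10, which interferon induces.

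Beyond the 45 genes, 131 other genes of these pathways were looked up, of which 115 were tested and 1 was called, beside 0.133% of all tested genes. Unc93b1, the chaperone that carries Tlr7, Tlr9 and other nucleic acid receptors from the endoplasmic reticulum to endosomes, is on the plus strand of chromosome 19 from 3935186 to 3949340. It rose from between 81 and 129 in wt/wt mice (median 106) to between 119 and 140 in ki/ki mice (median 133.5). Only wt/wt mouse 2, at 129, lay within the range of the ki/ki mice. The log2 fold change was 0.32 (SE 0.076, 95% interval 0.17 to 0.48), with an adjusted p of 0.0583 in limma's test. The call was kept in 17 of 26 alternatives and lost in 9, over which the adjusted p reached 0.228 without wt/wt mouse 5, the lowest of its genotype at 81.

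At an unadjusted p under 0.05 in limma's test there were 8 of these 115 genes, beside 6.08% of all tested genes. All 8 were higher in ki/ki mice, where 3.07% of all tested genes were higher at this limit. The 8 genes were Unc93b1, Cxcl16, Irf5, Tlr13, Herc6, Socs3, Birc3 and Parp9. Cxcl16, a membrane-bound chemokine, had the largest log2 fold change of them at 0.48 (95% interval 0.13 to 0.84), with means of 24.6 and 17.5 and an adjusted p of 0.614 in limma's test. Irf5, which acts below the endosomal receptors, had means of 44.6 and 35.5 (log2 fold change 0.32), and Tlr13, the mouse receptor of bacterial ribosomal RNA, 23.6 and 17.2 (0.45).

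By list, the 16 tested nucleic acid sensing genes, with Unc93b1 among them, had a median log2 fold change of 0.14, and 13 were above 0. The other 4 lists held no called gene. The interferon receptors, kinases and their inhibitors had a median of 0.02 over 12 tested genes, with Socs3, a feedback inhibitor of Il6 family signals, having the smallest unadjusted p at 0.028. Ifnb1 was listed at 0 in all 16 mice, and Ifng was at 0 except for a value of 1 in wt/wt mouse 2. Among the 37 tested further interferon-induced genes the median was -0.002, 18 were above 0 and 19 below, and Herc6, a ligase that attaches Isg15 in mice, had the smallest unadjusted p at 0.0194. The Toll-like receptor, IL-1 and NF-kB signalling genes had a median of -0.01 over 32 tested genes, where Birc3, an NF-kB target that blocks cell death, had the smallest unadjusted p at 0.0395. For the further cytokines, chemokines and receptors the median was 0.03 over 18 tested genes.

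**Figure D4:**
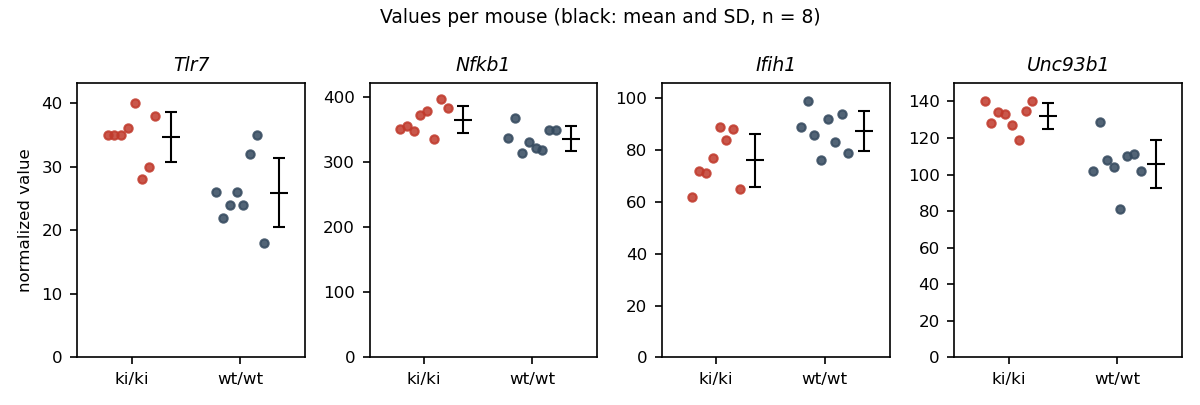
Normalized value per mouse (y axis, from 0) of Tlr7, Nfkb1, Ifih1 and Unc93b1, with points in the order of mouse 1 to 8 and the mean with SD in black (n = 8 each). The ki/ki mice lie higher for Tlr7 (28 to 40 against 18 to 35), Nfkb1 and Unc93b1 and lower for Ifih1 (62 to 89 against 76 to 99), and in each gene some mice overlap.

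Some listed genes of phagocytic microglia did differ in the same libraries. Of 17 listed genes, 9 were called, beside 0.133% of all tested genes. All 9 were higher in ki/ki mice: Mpeg1, C1qb, Ctss, C1qa, C1qc, Ctsd, Trem2, Cd68 and Itgax. The study had reported Cd68, Trem2, Ctsd, C1qa, C1qb and C1qc as raised in these mice before the list was chosen. The count of called genes is therefore not independent support, and neither are the median and the summed value of the list. Among listed genes not called, log2 fold changes ran from -0.06 (Lpl) and -0.005 (Spp1) to 1.04 (Clec7a). The list had a median log2 fold change of 0.30. Its summed value lay between 4131 and 4480 in ki/ki and between 3632 and 3936 in wt/wt mice, without overlap. Mpeg1, a pore-forming protein of phagocytes, had means of 292 and 222 (log2 fold change 0.40), and Cd68, a lysosomal protein of phagocytes, 63.6 and 45 (log2 fold change 0.49, adjusted p of 0.0431 in limma's test). Leaving out single mice ended the call of Cd68 (ki/ki mice 1, 3 and 8, wt/wt mice 1 and 6, adjusted p up to 0.155), of Trem2 (ki/ki mouse 4, wt/wt mice 4 and 8, up to 0.160) and of Itgax (any of 12 mice, up to 0.163), as limma gave it. Without the variance trend, Cd68 (adjusted p of 0.219 in limma's test), Trem2 (0.506), Ctsd (0.245) and C1qc (0.163) were not called, and without the filter on low values Cd68 (0.108), Trem2 (0.104) and Itgax (0.103) were not. Of the 13 homeostatic microglia genes none was called, and 12 were above 0 with a median of 0.10. Their summed value lay between 2933 and 3133 in ki/ki and between 2740 and 2984 in wt/wt mice, which overlapped. No gene of either list was at 0 in all mice. Tlr7, Tlr13, Unc93b1 and Irf5 are expressed in microglia, and the part of these cells in their values was not tested.

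In astrocytes 3 of 9 listed genes were called, beside 0.133% of all tested genes. They were Gfap (log2 fold change 0.58), which the study had also reported as raised, Aqp4 (0.14) and Slc1a2 (0.06). Slc1a2 was not called without the filter on low values (adjusted p of 0.202 in limma's test) or without the variance trend (0.791). Of 11 listed blood leukocyte genes, Ly6c2 and Cd4 were tested, neither was called, and the other 9 lay under the filter. Their summed value lay between 69 and 143 in ki/ki and between 67 and 115 in wt/wt mice. Border-associated macrophages (6 genes), endothelial cells (8), pericytes and smooth muscle (6), red blood cells (5), choroid plexus (5), oligodendrocytes (6) and neurons (6) had no called gene. The smallest unadjusted p of these lists belonged to Pf4 (0.0208), Ly6c1 (0.176), Abcc9 (0.145), Hbb-bs (0.133), Ttr (0.031), Cnp (0.0779) and Syt1 (0.0398) in limma's test. The neuronal list summed to at least 40559 and the oligodendrocyte list to at least 45247 in every library, which goes with the brain as the labelled tissue.

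**Figure D5:**
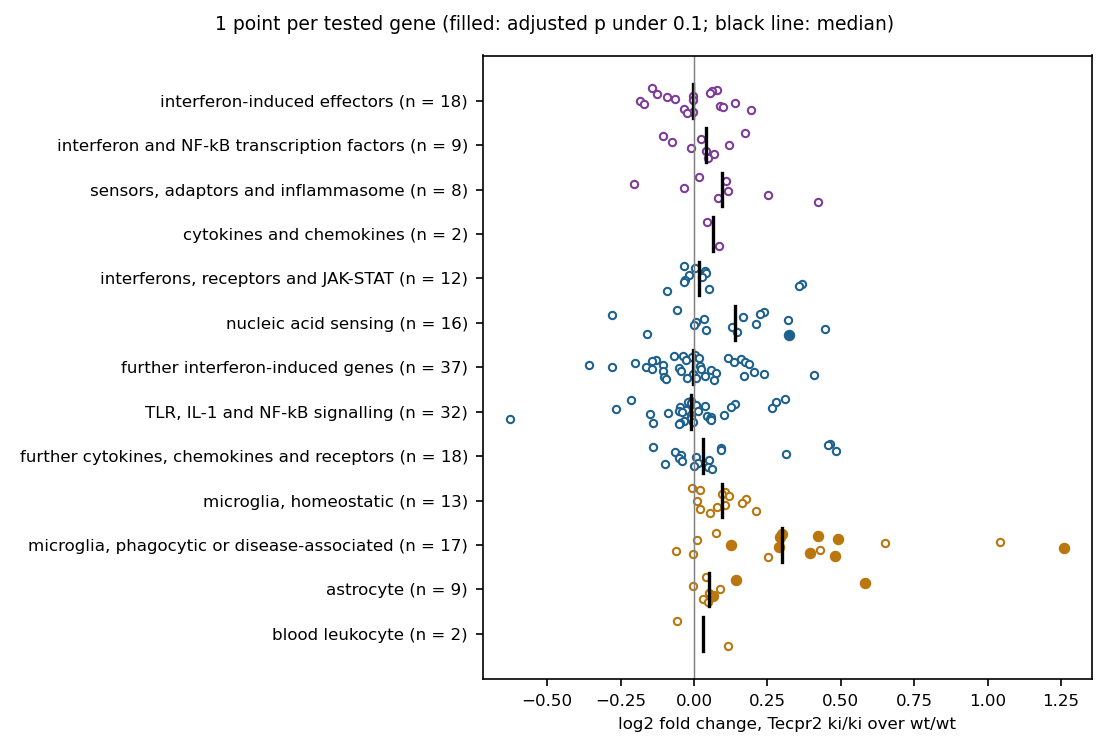
Log2 fold change (x axis, ki/ki over wt/wt) of each tested gene in the 4 roles, in 5 lists of other pathway genes and in 4 lists of cell type markers, with the median as a black line. Filled points have an adjusted p under 0.1: none of the 37 members, 1 of the other pathway genes (Unc93b1), 9 genes of phagocytic microglia and 3 of astrocytes.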

How the data were processed

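The 16 whole brain libraries were grouped by their titles into Tecpr2 ki/ki and wt/wt. Per the methods and the processing notes, the authors trimmed reads (Trim Galore 0.6.10, cutadapt 3.4), aligned them to GRCm39 (STAR 2.7.10b), counted them per gene with summarizeOverlaps and tested with DESeq2 1.40.2. The deposited score per gene is a linear normalized value rounded to whole numbers, with the normalization not named and totals of 11964284 to 12252324 per mouse, and whether counting used strand is not given in the sources used here. Rounding excludes a count test, so limma 3.58.1 (R 4.3.3, trend and robust) was fitted to log2(value + 1) with genotype as the only term over 23244 genes. It was tested on simulated data in which only genes of high mean value had been changed. How well it finds changes in genes of low value, as many members are, was not tested. Python 3.11.15 ran the exact permutation tests. Symbols and positions are from GENCODE M21 (GRCm38), promoters from RefSeq. Members and gene lists were chosen with earlier results of these data known. All members were named, with values per mouse for those at an unadjusted p under 0.05 and for 14 genes that define a role, and from each other list the called genes and the gene of smallest p. A gene under this rule is not reported here.

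Alternatives changed the filter, the pseudocount (0.5 or 5), the scaling, the variance model and the weights, added a replicate block, or left out 1 mouse. Read depth was estimated from gaps that rounding leaves among low values. Across 120 pairs of libraries, differences were 1.35 to 2.05 times the counting variance, so none was a duplicate.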

Additional observations from a re-analysis of the deposited data

Results flagged for a closer look

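In 128 groups of 8 values (named genes, each genotype), 2 held a mouse whose gap to the nearest other mouse was over Dixon's 95% limit for 8 values, where chance gives about 6.4. Cxcl16 was at 40 in ki/ki mouse 4, and the nearest ki/ki mouse was at 25. Aqp4 was at 2195 in ki/ki mouse 7, and the nearest ki/ki mouse was at 2245.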

How the results depend on the processing

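None of the 37 interferon and inflammatory genes was called under any of the 26 alternatives, 16 of which left out 1 mouse each. The number at an unadjusted p under 0.05 was 5 without the filter on low values, where Ccl4 and Tnf joined, and 2 to 4 when 1 mouse was left out. Their median log2 fold change lay between 0.0097 and 0.0535 with 1 mouse left out. Among the other pathway genes, 0 were called without the filter, 0 without the variance trend, and 0 to 1 with 1 mouse left out: leaving out any of mice 1, 4, 7 and 8 of ki/ki and 1, 5 and 8 of wt/wt ended the call of Unc93b1. Over all tested genes, 20 were called without the filter, 15 without the variance trend and 25 to 40 with 1 mouse left out, against 31. The log2 fold change of Tecpr2 lay between -1.69 and -1.66 with 1 mouse left out. The cause of these shifts was not tested. A replicate block gave 46 called genes, again 0 members and 3 members at the unadjusted limit. Same-numbered mice of both genotypes correlated at -0.039 to 0.149 (median 0.017), and 1 of 8 pairs was above 0.1. Pairs of different numbers correlated at -0.117 to 0.091, and 2 of the 8 numbers correlated best with their own. The labels state no pairing, and these correlations are too weak to decide whether the numbers pair mice. Among single named genes, 714 values kept their direction and call, 16 small log2 fold changes of members changed sign or moved, and 15 calls of Unc93b1 and of microglia or astrocyte genes were lost. Depth limits the 8 low cytokines most, whose values rest on a few reads.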
